A study of Mus musculus with 20 samples.

Results

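The comparison set 3 skin libraries from hindlimbs irradiated at a conventional dose rate (CONV) against the other 7 skin libraries of the study, treated as 1 group. The members were taken by record title, 3 CONV records against 4 FLASH and 3 sham records, and made up 10 of the 20 libraries, the rest being of muscle. All mice were wild-type C57BL/6J. CONV and FLASH limbs received 35 Gy of electrons on the left side from the ElectronFlash linear accelerator, set to its conventional mode or to its FLASH mode, which delivers the dose at an ultra-high rate. Sham mice were not irradiated, and skin of the left hindlimb was collected at 70 days in every group. The file of sham library 3 and that of FLASH library 1 carried the name of another record, whereas no CONV file did, and the group of 7 is the same whichever name is taken. A difference found here is one from FLASH and sham skin pooled as 1 group, and not from sham skin alone. The labels number the replicates without saying that each number is a separate mouse. The p-values set the difference between the groups against the spread of these libraries within groups. That spread may not be the one between mice, and part of it may be technical.

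A large single dose of radiation depletes dividing cells of the epidermis and can leave, weeks to months later, open or healing wounds and a stiff, collagen-rich dermis. Inflamed skin draws neutrophils and monocytes from the blood through CXC and CC chemokines, and these cells sense damage with paired activating and inhibitory receptors, many of which signal through the adaptor TYROBP. Fibroblasts build the matrix from procollagen chains, which are hydroxylated and folded in the endoplasmic reticulum, secreted, trimmed and cross-linked.

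The 10 skin libraries held 24396463 to 33250762 estimated counts, and 20026 genes passed the filter on low counts. No pair of libraries within a group agreed within sampling noise (chi-square of 70.4 to 402.5 per degree of freedom over genes). Levels are given as CPM, a gene's estimated counts scaled to a common library size with TMM factors (edgeR's correction for library composition). Log2 fold changes carry their standard error after the ± sign. The defining skin markers Krt5 and Krt14, keratins of the basal epidermis, were present in every library, at 1969 to 5799 CPM and 2730 to 18398 CPM in CONV skin and at 1962 to 3176 CPM and 738 to 4077 CPM in the other 7. CONV library 3 stood apart in Lor and Krt10, markers of the upper epidermis, and less so in Krt1 and Flg. Krt1 had 3921, 5885 and 302 CPM in CONV skin, against 565 to 3696 CPM (median 778) in the other 7. Flg had 4228, 12612 and 276 CPM in CONV skin, against 298 to 3760 CPM (median 391) in the other 7. Lor (loricrin, a protein of the cornified envelope) had 254, 251 and 10.9 CPM in CONV skin, against 181 to 349 CPM (median 241) in the other 7, and Krt10, a keratin of the layers above the basal one, had 4536, 9130.1 and 294 CPM in CONV skin, against 2404 to 3664 CPM (median 3175) in the other 7. Skeletal muscle RNA varied as well, and the 15 fast muscle genes summed to 4035, 4519 and 539 CPM in CONV skin and 80.7 to 35075 CPM in the other 7 libraries, with sham library 1 and FLASH library 2 both far above the rest, at 35075 and 34802 CPM. In tissue samples such as these, fewer cells of a type and less RNA per cell cannot be told apart.

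In skin irradiated at the conventional rate, the genes called higher than in FLASH and sham skin included chemokines, receptors of neutrophils and other myeloid cells, and most fibrillar collagens. By edgeR's quasi-likelihood test with Benjamini-Hochberg adjustment over all genes tested, 331 genes (1.65% of 20026) passed the threshold of 0.05. Of these, 317 (1.58%) were higher in CONV skin and 14 (0.0699%) were lower. The median log2 fold change was 1.98 among the genes called higher, with a range of 0.72 to 7.57, and 0.00 among all genes tested. In 304 genes the fitted rise was 2-fold or more, in 155 it was 4-fold or more and in 35 it was 16-fold or more. Protein-coding genes made up 308 of the 317, a share of 97.2%, against 88.3% of the genes tested. All 3 CONV libraries lay above all 7 others in 264 of the 317 genes (772 of all genes tested, 3.85%, did so) and below them in 14 of the 14 lower genes (524 of all, 2.62%). The genes were selected by p in these same libraries, so such separation, here and below, is largely fixed by the selection and adds no support.

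The calls lay close to the threshold. Their adjusted p-values spanned only 0.0352 to 0.0491, and 4696 genes had an unadjusted p under 0.05 (2823 higher and 1873 lower). Leaving out any 1 of sham libraries 1, 2 and 3 or of FLASH libraries 1, 2 and 3 brought the count of calls to 0 (3753 to 4987 genes kept an unadjusted p under 0.05), and leaving out CONV library 3 brought it to 1. Without CONV library 2 it was 148, without CONV library 1 it was 1319 and without FLASH library 4 it was 1454. In each of these 10 fits every called gene that could be tested kept its direction, and at least 330 had an unadjusted p under 0.05. The genes had been selected by p in the same libraries, so this outcome was largely fixed in advance. The adjusted p of the 331 genes was 0.0748 to 0.118 over the 6 fits with no call, and 0.156 to 0.285 without CONV library 3. Of the 331 genes, 61, all higher, were also called under each of 9 other settings with all 10 libraries, which leave aside the hair covariate (0 calls) and the replicate block. Every statement below that a gene was called carries this limit.

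**Figure D1:**
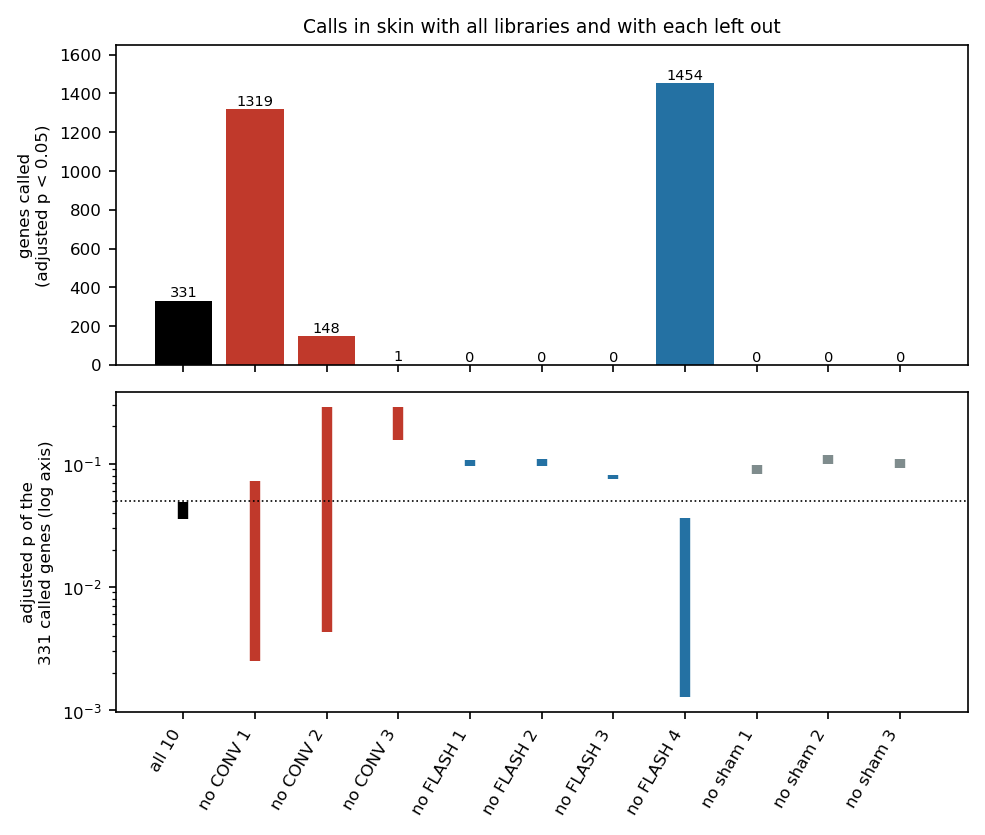
Upper panel, number of genes called in skin (y axis) with all 10 libraries and with each library left out (x axis). Lower panel, the range of adjusted p of the 331 genes called with all libraries (log axis, dotted line at 0.05). The count was 1319 without CONV library 1, 148 without CONV library 2, 1 without CONV library 3, 1454 without FLASH library 4 and 0 without any other library.

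The 3 CONV libraries did not contribute alike. Of the 317 genes called higher, 263 had their highest level in CONV library 3, 49 in CONV library 2 and 5 in CONV library 1, and in 251 of them CONV library 1 was the lowest of the 3. Against the median of the sham libraries and FLASH libraries 1 to 3, the median log2 difference of the 317 genes was 1.22, 1.76 and 2.83 in CONV libraries 1, 2 and 3. FLASH library 4 stood at 0.80 on the same scale and was the highest of the 7 other libraries in 269 of the 317 genes. The 317 genes took 2.86%, 4.44% and 8.36% of the counts of tested genes in the CONV libraries, against 1.49% to 2.16% in the FLASH libraries and 1.35% to 1.53% in the sham libraries. CONV library 3, the highest in most of these genes, was also the library with little Lor and Krt10, and the part of that difference in the calls was not tested.

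**Figure D2:**
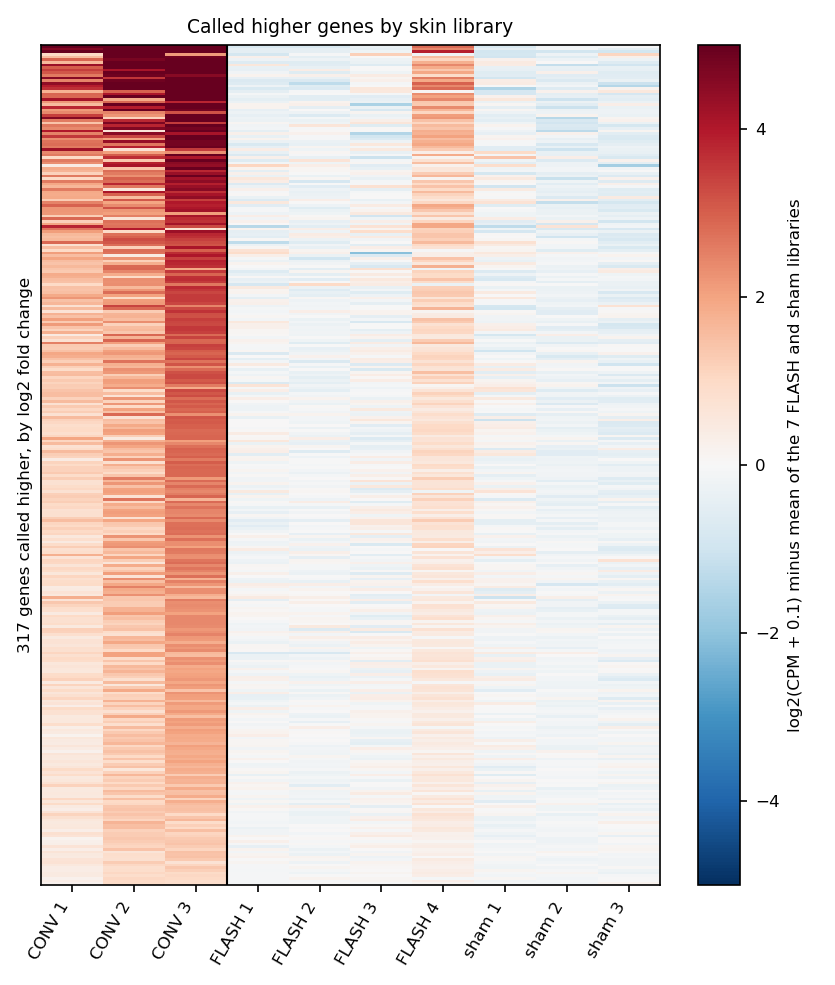
Each row is 1 of the 317 genes called higher, ordered by log2 fold change, and each column is 1 skin library, with the 3 CONV libraries on the left. Colour gives log2(CPM + 0.1) minus its mean over the 7 FLASH and sham libraries; CONV library 3 is the highest in 263 rows, and FLASH library 4 is the highest of the other 7 in 269.

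CXC chemokines are small secreted proteins that attract neutrophils. In their list, 5 of 21 tested members were called higher in CONV skin (the share among all genes was 1.58%), 19 of 21 had a log2 fold change above 0, and the median was 1.18. For this list and every list below, 50.4% of all genes tested in skin were above 0, beside the 1.58% called higher. Cxcl2 (MIP-2; ENSMUSG00000058427) had the largest fitted change of all called genes. Its levels were 5.95, 56.9 and 44.3 CPM in CONV skin, against 0 to 1.09 CPM (median 0.0316) in the other 7. Cxcl2 did not overlap between the groups, and its log2 fold change was 7.57 ± 1.22 (adjusted p = 0.0352). Its neighbour Cxcl1 (KC; ENSMUSG00000029380) had 18.9, 3.79 and 92.2 CPM in CONV skin, against 0.415 to 5.50 CPM (median 0.659) in the other 7. Cxcl1 overlapped between the groups, with CONV library 2 below FLASH library 4, and its log2 fold change was 4.74 ± 0.96 (adjusted p = 0.0474). Cxcl3, a close relative of both, had 1.68, 18.1 and 20.4 CPM in CONV skin, against 0.0949 to 1.37 CPM (median 0.560) in the other 7. Cxcl3 was highest in CONV library 3, every CONV library lay above the 7, and the log2 fold change was 4.51 ± 0.70 (adjusted p = 0.0352). For Cxcl5, which epithelial cells also make, the levels were 71, 17.1 and 277 CPM in CONV skin, against 7.66 to 22.9 CPM (median 9.86) in the other 7. Cxcl5 overlapped between the groups, with CONV library 2 below FLASH library 4, and its log2 fold change was 3.28 ± 0.62. The 4 genes lie together on chr5:90759360-90905938 (GRCm38, GENCODE M21), where 7 protein-coding genes were tested and Ppbp, Pf4 and Cxcl15 were not called. Cxcr4, the receptor of Cxcl12, had 23.6, 27.6 and 46.6 CPM in CONV skin, against 3.59 to 12.3 CPM (median 5.37) in the other 7. Cxcr4 was lowest of the CONV libraries in library 1, still above FLASH library 4, and the log2 fold change was 2.33 ± 0.34.

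The sequences before the starts of the CXC genes are shown because 3 of the neighbours that were called share 1 short site there. They are plus-strand bases of RefSeq on GRCm38 from shortly before each start, chr5:90890995-90891240 for Cxcl1, chr5:90903649-90903870 for Cxcl2 and chr5:90785851-90786100 for Cxcl3, with the stretch that matches the NF-kappaB motifs in capitals. NF-kappaB is a transcription factor of the inflammatory response.
Cxcl1: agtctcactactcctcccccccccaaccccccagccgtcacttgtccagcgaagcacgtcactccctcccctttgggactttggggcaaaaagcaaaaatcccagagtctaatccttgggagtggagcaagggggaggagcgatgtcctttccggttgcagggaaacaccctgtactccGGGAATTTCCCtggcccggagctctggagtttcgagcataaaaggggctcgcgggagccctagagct
Cxcl2: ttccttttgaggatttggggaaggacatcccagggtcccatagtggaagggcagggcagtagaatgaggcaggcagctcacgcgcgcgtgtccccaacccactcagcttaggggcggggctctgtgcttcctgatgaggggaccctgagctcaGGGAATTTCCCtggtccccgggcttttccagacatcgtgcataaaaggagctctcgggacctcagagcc
Cxcl3: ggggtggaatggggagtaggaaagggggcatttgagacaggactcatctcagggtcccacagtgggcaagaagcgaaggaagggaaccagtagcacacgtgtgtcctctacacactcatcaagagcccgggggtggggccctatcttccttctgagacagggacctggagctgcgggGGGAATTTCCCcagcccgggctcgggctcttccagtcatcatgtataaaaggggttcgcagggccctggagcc
The site GGGAATTTCC begins 71, 97 and 73 bases before the RefSeq start of Cxcl1, Cxcl2 and Cxcl3, and the 2 NF-kappaB forms searched overlap there. The forms, GGGA, any base, then TTTCC, and GGGAA, any base, then TTCC, were sought on both strands in the 250 bases before each RefSeq start. Of the 236 genes called higher that had such a window, 5 (2.12%) held at least 1 form, against 84 of the 13707 tested genes with a window (0.613%). The other 2 of the 5 were Tnn and Cd300ld. Cxcl5, the remaining called neighbour, had no matched window and was not searched. Whether the uncalled neighbours Ppbp, Pf4 and Cxcl15 hold the site is not given here. A match describes the letters of these windows and is not a bound site.

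Cytokine genes outside the CXC family were called as well. Il1b, which encodes the cytokine interleukin-1 beta, had 59.5, 140.1 and 284 CPM in CONV skin, against 1.05 to 21.1 CPM (median 2.13) in the other 7. Il1b was above the highest of the 7, FLASH library 4, in every CONV library, and its log2 fold change was 5.08 ± 0.94 (adjusted p = 0.0388). Nlrp3, the sensor of the inflammasome that activates interleukin-1 beta, had 7.59, 60.2 and 49 CPM in CONV skin, against 0.601 to 4.19 CPM (median 0.692) in the other 7. Nlrp3 did not overlap between the groups, and its log2 fold change was 4.96 ± 0.73. They were 2 of 20 members called in the interleukin-1 and inflammasome list, whose median was 0.73. In the CC chemokine list 2 of 33 members were called, Ccl3 and Ccl4, chemokine ligands that lie side by side on chromosome 11. Ccl4 had 0.458, 30.3 and 5.50 CPM in CONV skin, against 0 to 0.456 CPM (median 0.0949) in the other 7. Its level in CONV library 1 was close to that in FLASH library 4, and its log2 fold change was 6.51 ± 1.07. Ccl3 had 0.534, 29.1 and 8.20 CPM in CONV skin, against 0.0319 to 0.607 CPM (median 0.0633) in the other 7. Ccl3 overlapped between the groups, with CONV library 1 below FLASH library 4, and its log2 fold change was 6.30 ± 1.04. Osm, an interleukin-6 family cytokine, had 3.43, 15.5 and 21 CPM in CONV skin, against 0 to 1.94 CPM (median 0.0830) in the other 7. Osm was highest in CONV library 3, every CONV library lay above the 7, and the log2 fold change was 5.07 ± 1.05 (adjusted p = 0.0474). Socs3, the feedback inhibitor of STAT3 signalling, had 69.5, 132 and 292 CPM in CONV skin, against 19.4 to 71.2 CPM (median 29.7) in the other 7. Socs3 overlapped between the groups, with CONV library 1 below FLASH library 4, and its log2 fold change was 2.23 ± 0.44. These were the 2 of 16 called in the interleukin-6 family list. Among NF-kappaB feedback genes 4 of 22 were called, including the receptor Tnfrsf1b (1.98) and Tnfaip2 (1.82). Tnf, the cytokine, had 2.06, 11.3 and 11 CPM in CONV skin, against 0.751 to 2.19 CPM (median 1.55) in the other 7. Tnf overlapped between the groups, with CONV library 1 below FLASH library 4, and its log2 fold change was 2.39 ± 0.44. Ier3, an immediate early gene of the same pathway, had 42.9, 121 and 123 CPM in CONV skin, against 11.3 to 30.6 CPM (median 18.7) in the other 7. Ier3 was lowest of the CONV libraries in library 1, still above FLASH library 4, and the log2 fold change was 2.30 ± 0.34.

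**Figure D3:**
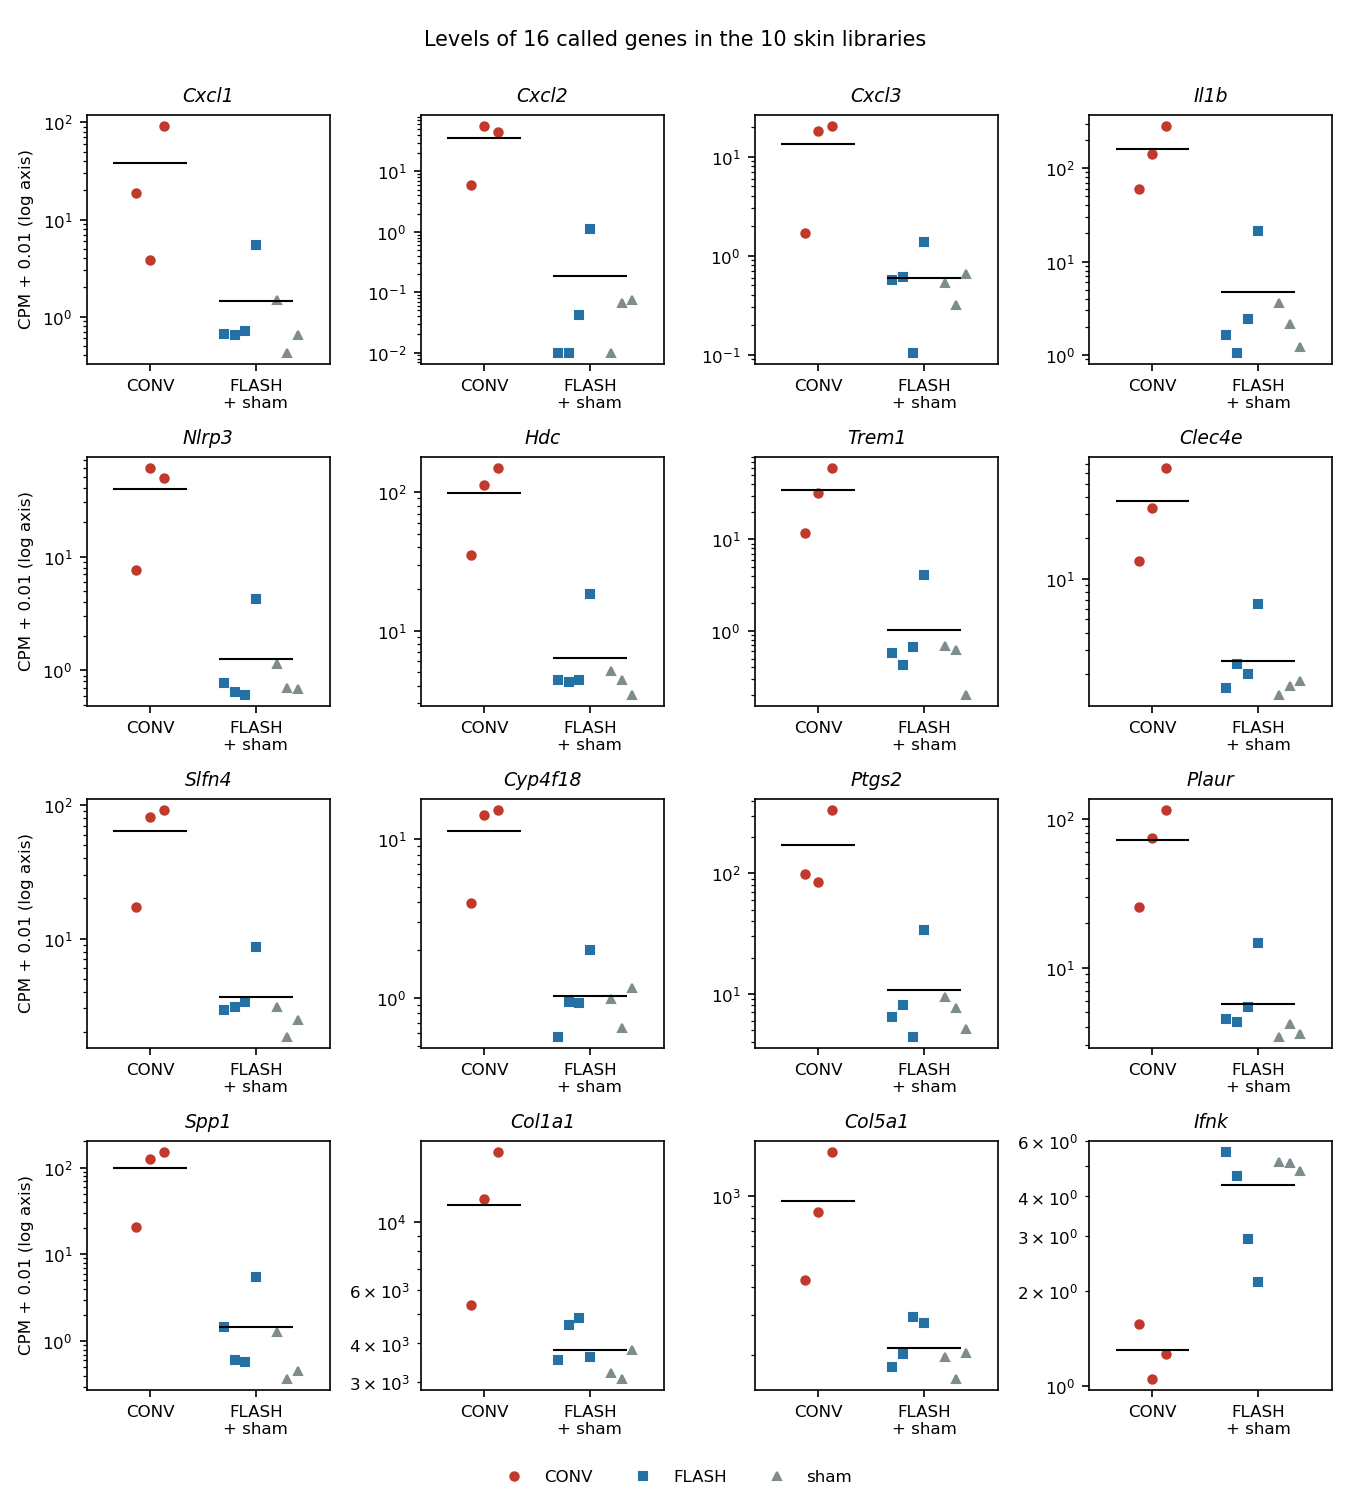
Levels (CPM + 0.01, log axis) of 16 called genes in each skin library: CONV libraries 1 to 3 from left to right (circles), FLASH libraries 1 to 4 (squares) and sham libraries 1 to 3 (triangles), with the group mean as a bar. All 3 CONV points lie above the other 7 in Cxcl2 and Il1b, 1 CONV point falls among them in Cxcl1, and FLASH library 4 is the highest of the 7 in most of the raised genes; Ifnk is the 1 gene shown that was lower in CONV skin.

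Myeloid receptors were the list with the most calls. Of its 40 tested members 20 were called higher, beside 1.58% of all genes tested. In 40 of 40 the log2 fold change was above 0, beside 50.4% of all genes tested, and the median was 2.07. Summed over the list, the level was 599, 921 and 2172 CPM in CONV skin and 190.5 to 530.0 CPM in the other 7 libraries. The called members include the Trem genes, immunoglobulin-type receptors that couple to TYROBP and lie in a row at chr17:48232768-48354147. In that stretch 5 of the 6 tested protein-coding genes were called: Trem1, Trem3, Treml4, B430306N03Rik and Trem2. Trem1, which amplifies neutrophil and monocyte responses, had 11.7, 32 and 60.4 CPM in CONV skin, against 0.192 to 4.04 CPM (median 0.609) in the other 7. Trem1 was above the highest of the 7, FLASH library 4, in every CONV library, and its log2 fold change was 5.07 ± 0.81 (adjusted p = 0.0352). Trem3 had 0.801, 3.08 and 4.24 CPM in CONV skin, against 0 to 0.152 CPM (median 0) in the other 7. Trem3 did not overlap between the groups, and its log2 fold change was 6.41 ± 0.86 (adjusted p = 0.0352). Its estimated counts in the 7 libraries summed to 6, so the fitted fold change rests on few reads. Trem2, a receptor of macrophages, changed least of the called genes in that row, at 10.5, 20.5 and 16.4 CPM in CONV skin, against 5.56 to 9.44 CPM (median 7.31) in the other 7. Trem2 was highest in CONV library 2, every CONV library lay above the 7, and the log2 fold change was 1.11 ± 0.21. A second row, of Cd300 receptors, held 4 called genes of the 9 tested at chr11:114922781-115133992. Cd300lf had 13.1, 27.7 and 63.2 CPM in CONV skin, against 2.27 to 7.62 CPM (median 3.45) in the other 7. Cd300lf was lowest of the CONV libraries in library 1, still above FLASH library 4, and the log2 fold change was 3.20 ± 0.44. Cd300ld, Cd300lb and Cd300c2 had log2 fold changes of 1.68, 2.30 and 2.85. Clec4e (Mincle), a lectin that recognises glycolipids and dead cells, had 13.4, 33.1 and 65.2 CPM in CONV skin, against 1.39 to 6.50 CPM (median 1.76) in the other 7. Clec4e was above the highest of the 7, FLASH library 4, in every CONV library, and its log2 fold change was 3.92 ± 0.54 (adjusted p = 0.0352).

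Promoter windows of Clec4e and Sirpb1b, a receptor of the signal-regulatory protein family, are shown as examples of called myeloid genes that hold a searched motif, and that of Spp1 as a matrix gene that holds 3. They are RefSeq bases on GRCm38, chr6:123289872-123290121 and chr3:15575066-15575315 on the minus strand and chr5:104434861-104435110 on the plus strand. Capitals mark a C/EBP motif and a TATAAA match in Clec4e, an IRF or ISRE motif in Sirpb1b, and a TATAAA match, an IRF or ISRE motif and the ETS motif of PU.1, in that order, in Spp1. The TATAAA match lies 29 bases before the RefSeq start in Clec4e and 211 bases before it in Spp1.
Clec4e: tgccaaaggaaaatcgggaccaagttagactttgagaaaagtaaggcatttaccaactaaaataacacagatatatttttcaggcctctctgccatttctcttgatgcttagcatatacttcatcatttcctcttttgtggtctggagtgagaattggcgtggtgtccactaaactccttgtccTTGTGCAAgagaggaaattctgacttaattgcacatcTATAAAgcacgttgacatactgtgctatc
Sirpb1b: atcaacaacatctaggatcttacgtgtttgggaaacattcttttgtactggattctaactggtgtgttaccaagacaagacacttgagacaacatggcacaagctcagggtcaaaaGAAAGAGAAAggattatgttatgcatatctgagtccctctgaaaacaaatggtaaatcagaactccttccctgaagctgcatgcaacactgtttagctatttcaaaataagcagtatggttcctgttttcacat
Spp1: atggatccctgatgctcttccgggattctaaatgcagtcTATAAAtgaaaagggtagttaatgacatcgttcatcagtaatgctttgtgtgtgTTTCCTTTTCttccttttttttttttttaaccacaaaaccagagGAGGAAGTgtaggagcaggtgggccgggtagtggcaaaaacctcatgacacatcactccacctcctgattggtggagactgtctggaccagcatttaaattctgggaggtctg
Searched on both strands, the PU.1 motif GAGGAAGT was held by 15 of the 236 windows of called higher genes (6.36%), against 2.35% of all tested windows. The share was 5.08% against 2.84% for the IRF or ISRE motif (GAAA, any 2 bases, then GAAA), 12.7% against 8.35% for the C/EBP motif TTGCNNAA, 14.4% against 9.82% for TATAAA and 5.08% against 5.54% for the AP-1 motif TGANTCA. Sirpb1b shared 72.2% of its 31-base words with other genes, chiefly Sirpb1c, so reads cannot be placed firmly between the copies. Its levels were 5.08, 4.93 and 14.5 CPM in CONV skin, against 0.941 to 1.94 CPM (median 1.60) in the other 7. Sirpb1b did not overlap between the groups, and its log2 fold change was 2.46 ± 0.33.

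Neutrophil and acute-phase effector genes had the largest list median, 2.91, with 12 of 32 called higher and 31 of 32 above 0. Over all genes tested these shares were 1.58% and 50.4%. Their summed level was 1026, 2145 and 3509 CPM in CONV skin and 178 to 857 CPM in the other 7 libraries. Retnlg, a resistin-like protein of neutrophils, had 3.21, 24 and 18.5 CPM in CONV skin, against 0 to 0.638 CPM (median 0) in the other 7. Retnlg was highest in CONV library 2, every CONV library lay above the 7, and the log2 fold change was 7.20 ± 1.17 (adjusted p = 0.0352). Fpr1, the receptor of formylated bacterial peptides, had 1.22, 4.60 and 9.52 CPM in CONV skin, against 0 to 0.486 CPM (median 0.0316) in the other 7. Fpr1 was lowest of the CONV libraries in library 1, still above FLASH library 4, and the log2 fold change was 5.70 ± 0.98. Mmp8, the collagenase of neutrophil granules, had 2.90, 6.63 and 16.4 CPM in CONV skin, against 0.160 to 1.34 CPM (median 0.330) in the other 7. Mmp8 was above the highest of the 7, FLASH library 4, in every CONV library, and its log2 fold change was 4.18 ± 0.65. Mrgpra2b had a log2 fold change of 6.00 ± 0.89, but 87% of its 31-base words are shared, mainly with Mrgpra2a, so its value is uncertain. Among Schlafen genes, interferon-inducible genes of leukocytes in the mouse, 3 of 8 were called, and all 3 lie at chr11:83065112-83190216. Slfn4 had 17.2, 81.1 and 92.5 CPM in CONV skin, against 1.83 to 8.69 CPM (median 3.07) in the other 7. Slfn4 did not overlap between the groups, and its log2 fold change was 4.14 ± 0.52 (adjusted p = 0.0352). Of its words 20.9% are shared with other genes, so the value is uncertain. Slfn1 and Slfn2 had log2 fold changes of 2.88 and 1.93.

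Other white blood cell lists moved less. Of the resident macrophage and complement list 3 of 20 were called, C1qa, C1qc and Lyz2, with a list median of 0.79. C1qa, a chain of the first complement component, had 39.1, 78.4 and 110.4 CPM in CONV skin, against 12 to 35.5 CPM (median 17.6) in the other 7. C1qa was highest in CONV library 3, every CONV library lay above the 7, and the log2 fold change was 1.91 ± 0.34. Lyz2, lysozyme of myeloid cells, shared 32.8% of its words with Lyz1 and had a log2 fold change of 1.49 ± 0.32. None of the 18 tested T, B and NK cell markers was called by edgeR (5 had an unadjusted p under 0.05, DESeq2 called 3 and limma-voom 0), 6 of 18 had a log2 fold change above 0 and the median was -0.29. Their summed level was 76.7, 77 and 79 CPM in CONV skin and 66.4 to 142 CPM in the other 7 libraries, and Ighm, the highest in CPM, had a log2 fold change of -1.57 ± 0.60 (adjusted p = 0.161). Dendritic and Langerhans cell markers gave 0 of 13 called (2 had an unadjusted p under 0.05, DESeq2 called 1 and limma-voom 0), with Cd74 at 0.02 ± 0.26 (adjusted p = 0.974). None of the 28 interferon-stimulated genes was called by edgeR either (16 had an unadjusted p under 0.05, DESeq2 called 9 and limma-voom 0); 22 were above 0 and the median was 0.71. The median of all genes tested, for comparison, was 0.00.

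Enzymes that make or degrade inflammatory mediators were called too. Ptgs2 (cyclooxygenase-2), the inducible enzyme of prostaglandin synthesis, had 98.2, 85.5 and 337 CPM in CONV skin, against 4.40 to 33.9 CPM (median 7.63) in the other 7. Ptgs2 was lowest of the CONV libraries in library 2, still above FLASH library 4, and the log2 fold change was 4.02 ± 0.65 (adjusted p = 0.0352). Cyp4f18, which inactivates leukotriene B4 in mouse neutrophils, had 3.97, 14.3 and 15.3 CPM in CONV skin, against 0.560 to 2.0 CPM (median 0.937) in the other 7. Cyp4f18 was above the highest of the 7, FLASH library 4, in every CONV library, and its log2 fold change was 3.44 ± 0.43. Together with Ptgir, the prostacyclin receptor (log2 fold change 1.89 ± 0.40), they were the 3 of 26 called in a list whose median was 0.00. Hdc, which makes histamine, had 35.3, 112 and 149.7 CPM in CONV skin, against 3.45 to 18.4 CPM (median 4.43) in the other 7. Hdc did not overlap between the groups, and its log2 fold change was 3.96 ± 0.56 (adjusted p = 0.0352). Hdc was the single call among 9 mast cell markers, whose median was 0.98. Among itaconate, arginine and oxidant enzymes 4 of 22 were called. Acod1, the itaconate-producing enzyme of activated macrophages, had 9.92, 57.5 and 83.3 CPM in CONV skin, against 0 to 2.70 CPM (median 0.0330) in the other 7. Acod1 was highest in CONV library 3, every CONV library lay above the 7, and the log2 fold change was 6.91 ± 1.46 (adjusted p = 0.0483). Nos2, inducible nitric oxide synthase, had 1.03, 14.5 and 17.8 CPM in CONV skin, against 0.160 to 1.68 CPM (median 0.881) in the other 7. Nos2 overlapped between the groups, with CONV library 1 below FLASH library 1, and its log2 fold change was 3.64 ± 0.72. Cyba and Ncf4, subunits of the phagocyte NADPH oxidase, had log2 fold changes of 1.73 and 2.03.

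**Figure D4:**
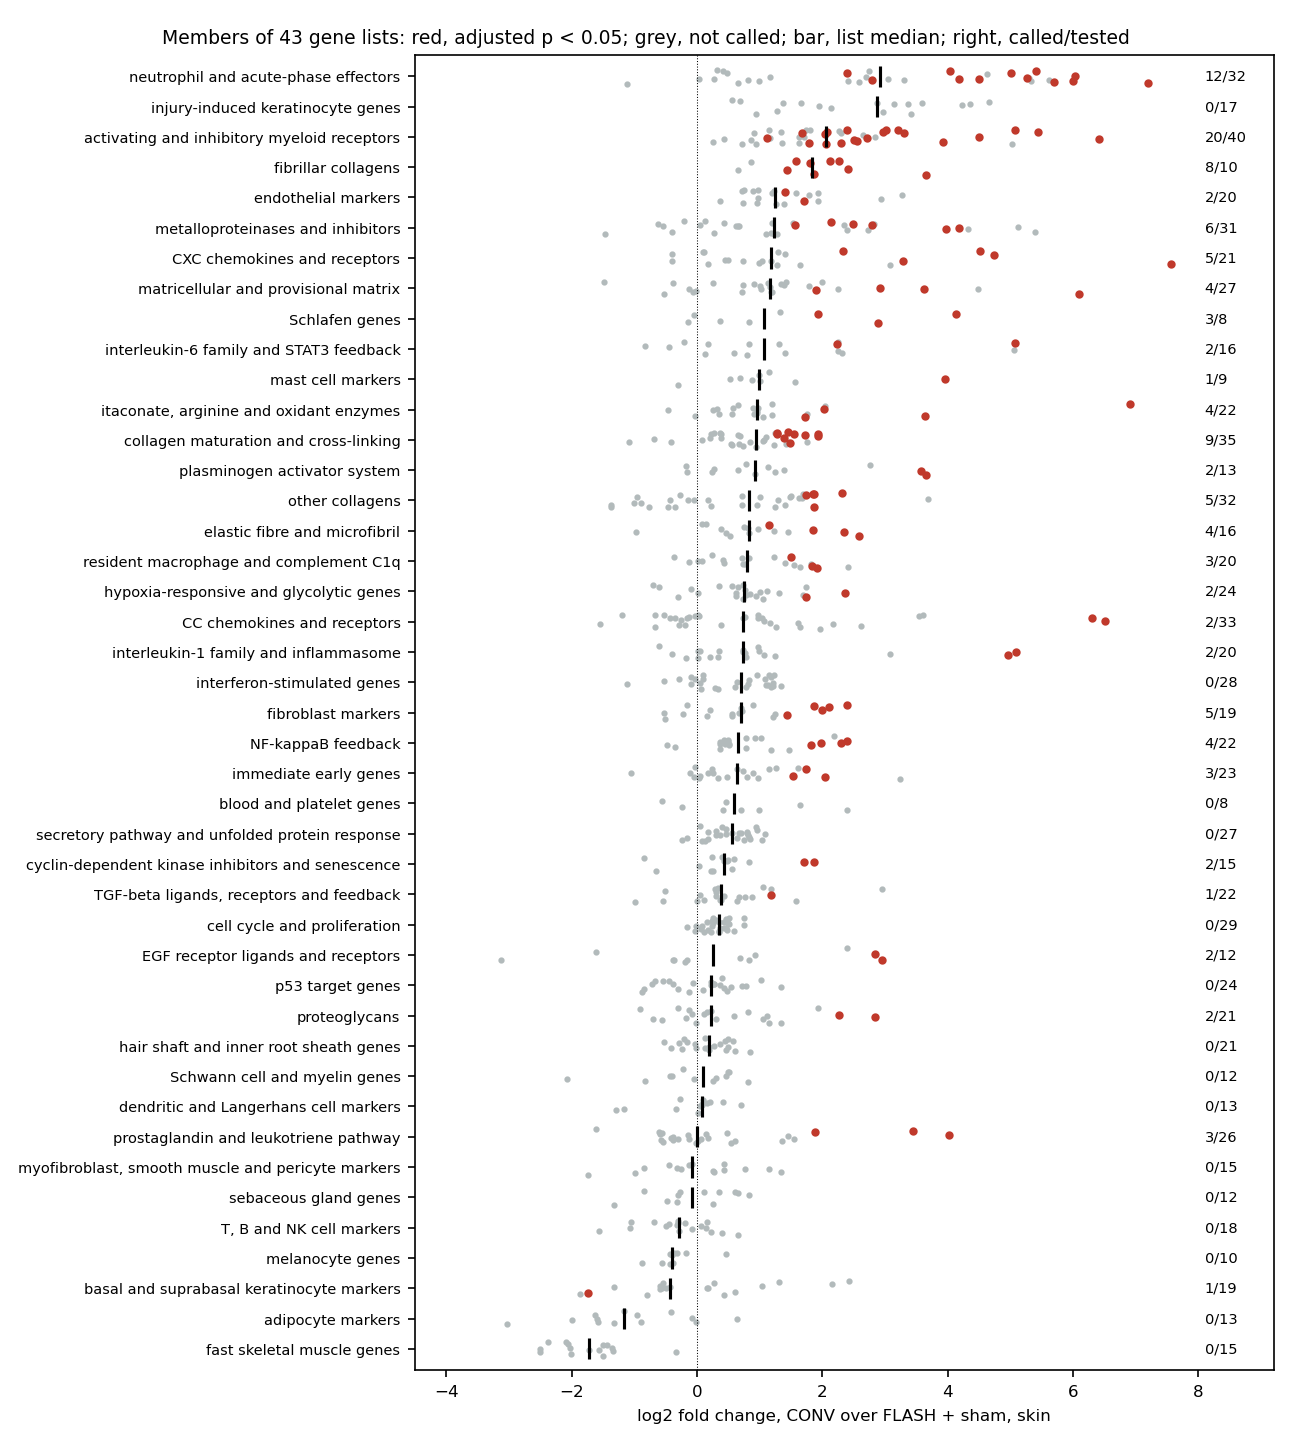
Log2 fold change in skin, CONV over FLASH and sham (x axis), of each tested member of 43 gene lists (y axis, ordered by median). Red points passed the adjusted p threshold of 0.05 and grey points did not; the bar is the list median and the figures on the right are called over tested members, 20/40 for myeloid receptors, 8/10 for fibrillar collagens and 0/17 for injury-induced keratinocyte genes.

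Collagens were the other large group. Of the 10 fibrillar collagen genes tested, 8 were called higher, 10 of 10 had a log2 fold change above 0 and the median was 1.83, and of the other collagens 5 of 32 were called with a median of 0.83. Over all genes tested 1.58% were called higher and 50.4% were above 0. Col1a1 (ENSMUSG00000001506; chr11:94936224-94953042), a chain of type I collagen, had 5325, 11876 and 16936 CPM in CONV skin, against 3069 to 4832 CPM (median 3615) in the other 7. Col1a1 was lowest of the CONV libraries in library 1, still above FLASH library 3, and the log2 fold change was 1.58 ± 0.29 (adjusted p = 0.0387). Its partner chain Col1a2 had 3121, 6845 and 8862 CPM in CONV skin, against 1985 to 2892 CPM (median 2196) in the other 7. Col1a2 was above the highest of the 7, FLASH library 3, in every CONV library, and its log2 fold change was 1.44 ± 0.26. Col3a1, the type III collagen of healing dermis, had 4332, 10218 and 13748 CPM in CONV skin, against 1902 to 3552 CPM (median 2526) in the other 7. Col3a1 did not overlap between the groups, and its log2 fold change was 1.87 ± 0.31. In all 3 genes the highest of the 7 was FLASH library 3, not FLASH library 4. The type V chains Col5a1 and Col5a2, which set the diameter of type I fibrils, were called too. Col5a1 had 429, 852 and 1557 CPM in CONV skin, against 158 to 295 CPM (median 204) in the other 7. Col5a1 was highest in CONV library 3, every CONV library lay above the 7, and the log2 fold change was 2.13 ± 0.32 (adjusted p = 0.0352). Col5a2 had 415, 709.9 and 1420.4 CPM in CONV skin, against 119 to 285 CPM (median 159) in the other 7. Col5a2 was lowest of the CONV libraries in library 1, still above FLASH library 4, and the log2 fold change was 2.27 ± 0.35. Col24a1, a minor fibrillar collagen, had 16.1, 6.68 and 81.1 CPM in CONV skin, against 1.58 to 4.40 CPM (median 2.37) in the other 7. Col24a1 was above the highest of the 7, FLASH library 4, in every CONV library, and its log2 fold change was 3.65 ± 0.61. Of the network-forming and beaded collagens, Col4a1 had 370.1, 554 and 1124 CPM in CONV skin, against 149 to 352 CPM (median 172) in the other 7. Col4a1 did not overlap between the groups, and its log2 fold change was 1.74 ± 0.34. Its neighbour Col4a2, another basement membrane chain, had a log2 fold change of 1.87 ± 0.36. Col6a3, a chain of beaded type VI collagen, had 594, 671 and 2188 CPM in CONV skin, against 154 to 458 CPM (median 189) in the other 7. Col6a3 was highest in CONV library 3, every CONV library lay above the 7, and the log2 fold change was 2.31 ± 0.44. The log2 fold change of Col6a2 was 1.85 ± 0.37. The 13 called collagens took 1.59%, 2.88% and 4.79% of counts in the CONV libraries, against 0.830% to 1.39% in the other 7. The summed level of the 19 fibroblast markers was 2084, 1543 and 3801 CPM in CONV skin and 959.5 to 1678 CPM in the other 7 libraries; its part in the collagen result was not tested.

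Transcripts of genes that fold, modify and cross-link collagen were called in part. Of the 35 genes of that list 9 were called, 32 of 35 were above 0 and the median was 0.93. Serpinh1 (HSP47), the chaperone of procollagen, had 144, 142 and 382 CPM in CONV skin, against 73.2 to 99.5 CPM (median 83.4) in the other 7. Serpinh1 was lowest of the CONV libraries in library 2, still above FLASH library 3, and the log2 fold change was 1.40 ± 0.27 (adjusted p = 0.0410). P3h3, which belongs to the prolyl 3-hydroxylase family, had 14.6, 25.3 and 36.2 CPM in CONV skin, against 9.0 to 12.3 CPM (median 9.99) in the other 7. P3h3 was above the highest of the 7, FLASH library 4, in every CONV library, and its log2 fold change was 1.28 ± 0.23. Loxl3, a lysyl oxidase, had 10.2, 14.1 and 25.8 CPM in CONV skin, against 4.23 to 7.02 CPM (median 5.89) in the other 7. Loxl3 did not overlap between the groups, and its log2 fold change was 1.55 ± 0.25. Creb3l1, a transcription factor that drives procollagen genes, had 36.2, 43.7 and 95.9 CPM in CONV skin, against 21.1 to 29.4 CPM (median 23.2) in the other 7. Creb3l1 was highest in CONV library 3, every CONV library lay above the 7, and the log2 fold change was 1.28 ± 0.25. In the secretory pathway list 0 of 27 were called by edgeR (18 had an unadjusted p under 0.05, DESeq2 called 9 and limma-voom 0), and 25 of 27 were above 0 with a median of 0.56. Calr (calreticulin), the member with the highest CPM, had 462, 579 and 536 CPM in CONV skin, against 223 to 441 CPM (median 264) in the other 7. Calr was lowest of the CONV libraries in library 1, still above FLASH library 4, and the log2 fold change was 0.84 ± 0.20 (adjusted p = 0.0581).

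Matrix glycoproteins and proteases were called as well. Spp1 (osteopontin), a phosphoprotein secreted by macrophages and fibroblasts, had 20.5, 126 and 152 CPM in CONV skin, against 0.360 to 5.47 CPM (median 0.600) in the other 7. Spp1 was above the highest of the 7, FLASH library 4, in every CONV library, and its log2 fold change was 6.09 ± 0.88 (adjusted p = 0.0352). Tnn (tenascin-W) had 16.3, 12 and 139 CPM in CONV skin, against 3.42 to 6.86 CPM (median 3.96) in the other 7. Tnn did not overlap between the groups, and its log2 fold change was 3.62 ± 0.60. CONV library 3 stood far above the other CONV libraries in this gene. With Thbs2 (1.90) and Ccn4 (2.92), these were the 4 of 27 called in the matricellular list, whose median was 1.17. Among elastic fibre genes 4 of 16 were called. Fbln2, a fibulin of vessels and healing skin, had 215, 381 and 893 CPM in CONV skin, against 56.4 to 148 CPM (median 72.3) in the other 7. Fbln2 was highest in CONV library 3, every CONV library lay above the 7, and the log2 fold change was 2.59 ± 0.39. The others had log2 fold changes of 2.34 for Emilin1, 1.85 for Efemp2 and 1.15 for Fbln1. Bgn (biglycan) and Srgn (serglycin, a granule proteoglycan of leukocytes) were the 2 of 21 proteoglycans called. Bgn had 862, 684 and 2868 CPM in CONV skin, against 175 to 496 CPM (median 262) in the other 7. Bgn was lowest of the CONV libraries in library 2, still above FLASH library 4, and the log2 fold change was 2.27 ± 0.42. Srgn had 26.9, 84.5 and 94.7 CPM in CONV skin, against 4.98 to 20.1 CPM (median 8.11) in the other 7. Srgn was above the highest of the 7, FLASH library 4, in every CONV library, and its log2 fold change was 2.85 ± 0.42. Of the metalloproteinases and inhibitors 6 of 31 were called. Mmp3 (stromelysin-1) had 92.6, 73.4 and 836 CPM in CONV skin, against 10.9 to 53.1 CPM (median 17.8) in the other 7. Mmp3 did not overlap between the groups, and its log2 fold change was 3.97 ± 0.73. Mmp2 (gelatinase A) had 534, 389 and 1512 CPM in CONV skin, against 119 to 309 CPM (median 173) in the other 7. Mmp2 was highest in CONV library 3, every CONV library lay above the 7, and the log2 fold change was 2.13 ± 0.38. Mmp9 (gelatinase B) had 49.1, 75.6 and 151 CPM in CONV skin, against 2.63 to 21.8 CPM (median 13.9) in the other 7. Mmp9 was lowest of the CONV libraries in library 1, still above FLASH library 1, and the log2 fold change was 2.79 ± 0.48. In the plasminogen activator system 2 of 13 were called. Plaur, the urokinase receptor, had 25.6, 74.1 and 115 CPM in CONV skin, against 3.42 to 14.5 CPM (median 4.27) in the other 7. Plaur was above the highest of the 7, FLASH library 4, in every CONV library, and its log2 fold change was 3.65 ± 0.51 (adjusted p = 0.0352). Lrp1, an endocytic receptor that clears protease and inhibitor complexes, was among the 10 called genes with the highest CPM, at 1297, 1519.7 and 3856 CPM in CONV skin, against 626 to 1075 CPM (median 706) in the other 7. Lrp1 did not overlap between the groups, and its log2 fold change was 1.54 ± 0.30.

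Among markers of the resident cells of skin other than leukocytes, the genes called higher were fibroblast and endothelial ones. Of 19 basal and suprabasal keratinocyte markers 0 were called higher and 1, Ifnk, lower, 9 were above 0 and the median was -0.42. Their summed level was 29071, 63547 and 9682 CPM in CONV skin and 18743 to 26828 CPM in the other 7 libraries. Of the fibroblast markers 5 of 19 were called higher, beside 1.58% of all genes tested, with a median of 0.70. Pdgfra, the receptor that marks dermal fibroblasts, had 242, 136 and 716 CPM in CONV skin, against 59 to 129.9 CPM (median 74.6) in the other 7. Pdgfra was highest in CONV library 3, every CONV library lay above the 7, and the log2 fold change was 2.11 ± 0.41. The log2 fold change was 2.00 ± 0.38 for Pdgfrb and 1.44 ± 0.30 for S100a4. S100a4 shares 49.2% of its 31-base words with another annotated gene, so its value is uncertain. Twist2, a dermal transcription factor, had 18.8, 27.2 and 85.2 CPM in CONV skin, against 6.46 to 11.5 CPM (median 7.98) in the other 7. Twist2 was lowest of the CONV libraries in library 1, still above FLASH library 4, and the log2 fold change was 2.39 ± 0.38. Of its words 46% are shared with another annotated gene, which was not among the genes quantified, so counts could not be traded with it. Whether reads of that gene were counted as Twist2 was not tested. Of the endothelial markers 2 of 20 were called by edgeR, Vcam1, which binds leukocytes (1.40 ± 0.22), and Tie1 (1.70 ± 0.32), while 20 of 20 were above 0 with a median of 1.25. Of 15 myofibroblast, smooth muscle and pericyte markers 0 were called (3 had an unadjusted p under 0.05, DESeq2 called 2 and limma-voom 0), with a median of -0.08, and Tpm1, the highest in CPM, had a log2 fold change of -0.99 ± 0.91 (adjusted p = 0.526). Without the 2 muscle-rich libraries, sham library 1 and FLASH library 2, its direction turned, to 0.56. The summed level of this list was 1776, 2325 and 1757 CPM in CONV skin. It was 6247 CPM in sham library 1 and 6446 CPM in FLASH library 2, but 951 to 1336 CPM in the remaining sham and FLASH libraries. The list median is therefore no sign that these markers were alike in the groups. The 17 injury-induced keratinocyte genes gave 0 calls by edgeR (7 had an unadjusted p under 0.05, DESeq2 called 1 and limma-voom 6), and 17 of 17 were above 0 with a median of 2.87. The highest of them in CPM, Krt16, a keratin of wounded and hyperproliferative epidermis, had 2505, 8918 and 1263 CPM in CONV skin, against 5.89 to 2542 CPM (median 14.3) in the other 7. Krt16 overlapped between the groups, with CONV libraries 1 and 3 below FLASH library 4, and its log2 fold change was 3.41 ± 1.79 (adjusted p = 0.275). The value of FLASH library 4 lay between those of CONV libraries. None of the 15 fast muscle genes was called (median -1.73; Myh4, the highest in CPM, -2.51 ± 2.20, adjusted p = 0.506), and Myh4 likewise turned, to 0.49, without the muscle-rich libraries. None of the 13 adipocyte markers was called (median -1.16; Car3, -1.58 ± 0.93, adjusted p = 0.325). The hair shaft genes gave 0 of 21 called and a median of 0.20 (Krt71, 0.37 ± 1.94, adjusted p = 0.922). Their mean log2 level ran from 4.03 to 8.50 in CONV skin and between -2.24 and 8.89 in FLASH and sham skin. Melanocyte genes gave 0 of 10 called (Mitf, -0.18 ± 0.26, adjusted p = 0.711), sebaceous gland genes 0 of 12 (Scd1, -0.84 ± 0.45, adjusted p = 0.280), Schwann cell genes 0 of 12 (Pmp22, 0.31 ± 0.33, adjusted p = 0.593) and blood and platelet genes 0 of 8 (Alas2, -0.23 ± 0.28, adjusted p = 0.628). Given as edgeR's count at an unadjusted p under 0.05, then the calls of DESeq2 and of limma-voom, the numbers were 0, 0 and 0 for fast muscle, 2, 2 and 0 for adipocyte, 0, 0 and 0 for hair shaft, 0, 0 and 0 for melanocyte, 2, 0 and 0 for sebaceous gland, 3, 0 and 0 for Schwann cell and 4, 2 and 0 for blood and platelet genes.

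Each of the growth factor, immediate early, hypoxia and senescence lists held 1 to 3 calls, beside 1.58% of all genes called higher. Hbegf and Areg, ligands of the EGF receptor, were the 2 of 12 called in their list. Areg (amphiregulin) had 40.0, 18.4 and 28.2 CPM in CONV skin, against 0.989 to 10.6 CPM (median 2.46) in the other 7. Areg was above the highest of the 7, FLASH library 4, in every CONV library, and its log2 fold change was 2.95 ± 0.63 (adjusted p = 0.0479). Hbegf had 64.4, 75.4 and 84.3 CPM in CONV skin, against 3.53 to 25.7 CPM (median 8.76) in the other 7. Hbegf did not overlap between the groups, and its log2 fold change was 2.84 ± 0.49. Tgfb1, the cytokine that induces collagen genes, was the 1 of 22 called among TGF-beta ligands, receptors and feedback genes, at 51.4, 69.1 and 122 CPM in CONV skin, against 23.3 to 47.1 CPM (median 36.2) in the other 7. Tgfb1 was highest in CONV library 3, every CONV library lay above the 7, and the log2 fold change was 1.18 ± 0.25 (adjusted p = 0.0487). Immediate early genes gave 3 of 23 calls, Csrnp1 (1.74), Nr4a2 (2.04) and Junb (1.53). Hypoxia-responsive and glycolytic genes gave 2 of 24, the glucose transporter Slc2a3 (1.74) and the hexokinase Hk3 (2.37). In the senescence list Hmga2, a chromatin protein, had 19.9, 18.7 and 39.6 CPM in CONV skin, against 5.35 to 10.8 CPM (median 8.14) in the other 7. Hmga2 was lowest of the CONV libraries in library 2, still above sham library 1, and the log2 fold change was 1.71 ± 0.27. The other call there was Igfbp7 (1.86), a secreted binding protein. None of the 24 p53 target genes was called by edgeR (median 0.23; 9 had an unadjusted p under 0.05, DESeq2 called 4 and limma-voom 0). None of the 29 cell cycle genes was called either (median 0.34; 1 had an unadjusted p under 0.05, DESeq2 called 0 and limma-voom 0), and Mki67, a marker of dividing cells, had a log2 fold change of 0.07 ± 0.43 (adjusted p = 0.933). Cdkn1a, the p53-induced inhibitor of cyclin-dependent kinases, had 228, 344 and 157 CPM in CONV skin, against 114 to 208 CPM (median 192) in the other 7. Cdkn1a overlapped between the groups, with CONV library 3 below FLASH library 3, and its log2 fold change was 0.43 ± 0.24 (adjusted p = 0.296).

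The lists were chosen with earlier results of these data known, so the share of their members called is not an independent result. Across all 43 lists, 116 of the 860 listed genes that were tested were called higher (13.5%, beside 1.58% of all genes), and 201 of the 317 genes called higher were in none of the lists. The smallest p of all belonged to such a gene, Adam30, a member of a family of membrane metalloproteinases, with 0.649, 1.52 and 3.09 CPM in CONV skin, against 0.0659 to 0.243 CPM (median 0.128) in the other 7. Adam30 was above the highest of the 7, FLASH library 4, in every CONV library, and its log2 fold change was 3.62 ± 0.45 (adjusted p = 0.0352). Themis2, a signalling protein of B cells and macrophages, had 13.5, 31.6 and 40.7 CPM in CONV skin, against 6.70 to 9.72 CPM (median 8.02) in the other 7. Themis2 did not overlap between the groups, and its log2 fold change was 1.86 ± 0.26. Phlda1, a stress-induced protein, had 35.6, 55 and 62.7 CPM in CONV skin, against 8.81 to 22.4 CPM (median 11.1) in the other 7. Phlda1 was highest in CONV library 3, every CONV library lay above the 7, and the log2 fold change was 2.04 ± 0.29. Phlda1 shares 30.8% of its words with other genes, and the closest of them was not among the genes quantified. Whether reads of that gene were counted as Phlda1 was not tested. Of the 331 called genes 40 shared over 20% of their 31-base words with other genes and 14 over 50%, with a median of 0.487%. These counts take in words on either strand and annotated genes that were not quantified, so they can overstate how far counts could be traded. Some called genes lay near each other. With gaps of at most 200 kb, 28 of the 321 called protein-coding genes fell in 8 groups of 3 or more; how often other genes do so was not tested. Beyond the Trem, Cd300, Cxcl and Slfn rows, these were Col4a1, Col4a2 and Rab20 on chromosome 8 (3 of 3 tested there), C1qtnf6, Rac2 and Cyth4 on chromosome 15 (3 of 4), Ccdc85b, Efemp2 and Sipa1 on chromosome 19 (3 of 15), and Dact3, Gng8 and Ptgir on chromosome 7 (3 of 3). Rac2, a GTPase of blood cells that serves the phagocyte oxidase, had 13, 18.4 and 39.3 CPM in CONV skin, against 7.40 to 12.3 CPM (median 8.82) in the other 7. Rac2 was lowest of the CONV libraries in library 1, still above FLASH library 4, and the log2 fold change was 1.37 ± 0.29. Protein-coding genes were also grouped by the stem of the symbol, after the values were seen. Only stems with at least 3 called genes were kept, so high counts follow in part from that choice. Among the stems kept, 13 of 43 Col genes, 5 of 21 Mmp genes and 3 of 12 Tlr genes were called higher, beside 1.58% of all genes tested. So were 3 of 25 Clec genes and 2 of 602 Olfr genes. Clec7a, which is not in that count, was called as well.

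The 14 genes called lower were at low levels, with group means of 0.467 to 8.43 CPM in the FLASH and sham libraries. Their log2 fold changes ran from -2.99 to -0.70, with a median of -1.62, and in every 1 of them the 3 CONV libraries lay below the other 7. Limma-voom called 0 of the 14, leaving out CONV library 2 kept 0 of them and scaling by library totals kept 5. Ifnk (interferon kappa), a type I interferon of keratinocytes, had 1.56, 1.04 and 1.25 CPM in CONV skin, against 2.13 to 5.54 CPM (median 4.82) in the other 7. The highest CONV value of Ifnk, in library 1, lay below all 7, and the log2 fold change was -1.74 ± 0.33 (adjusted p = 0.0388). It was the only listed gene called lower, 1 of the 19 keratinocyte markers. Cd96, a receptor of T and NK cells, had 0.725, 0.284 and 0.514 CPM in CONV skin, against 1.06 to 3.20 CPM (median 2.17) in the other 7. Cd96 was below the 7 in every CONV library, and its log2 fold change was -2.13 ± 0.44. H2-M5, a nonclassical major histocompatibility gene, had 1.95, 1.80 and 1.09 CPM in CONV skin, against 3.25 to 14.2 CPM (median 8.05) in the other 7. The highest CONV value of H2-M5, in library 1, lay below all 7, and the log2 fold change was -2.39 ± 0.51. Clca1, of a family named for chloride channel accessory proteins, had 0.611, 0.379 and 0.0964 CPM in CONV skin, against 1.11 to 4.79 CPM (median 3.12) in the other 7. Clca1 was below the 7 in every CONV library, and its log2 fold change was -2.99 ± 0.63. Rad51b, a recombination repair gene, had 4.24, 3.65 and 3.25 CPM in CONV skin, against 5.31 to 8.46 CPM (median 7.66) in the other 7. The highest CONV value of Rad51b, in library 1, lay below all 7, and the log2 fold change was -0.97 ± 0.18. The others were Kir3dl1 (-2.78), Scg3 (-1.21), Efcab1 (-1.31), Vmn1r5 (-0.95), Olfr1259 (-1.30), Cutal (-1.51), Zfp873 (-0.70), Gm16107 (-2.01) and Gm45713 (-2.30), as log2 fold changes. Gm45713 shares 98.1% of its words with other genes and Kir3dl1 41.2%, so these values are uncertain.

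Muscle of the same study gave a second tissue that the skin calls did not use. Fitted in the same way, CONV muscle against FLASH and sham muscle gave 8 called genes of 13080 tested (0.0612%). Of the 317 genes called higher in skin, 191 could be tested in muscle and 0 were called there, with a smallest adjusted p of 0.153, while 34 (17.8%) had an unadjusted p under 0.05, beside 11.9% of all genes tested in muscle. DESeq2 called 2 of the 191 in muscle and limma-voom 0. Their log2 fold changes in muscle ran from -0.97 to 1.16 with a median of 0.05, and 109 (57.1%) were above 0, beside 51.3% of all genes. The called collagens were mostly below 0 in muscle, 12 of 13, with a median of -0.44. Col5a1 had a log2 fold change of -0.57 ± 0.15 in muscle (adjusted p = 0.153) and Col3a1 one of -0.76 ± 0.31 (adjusted p = 0.388). C1qa had a log2 fold change of 0.37 ± 0.39 in muscle (adjusted p = 0.761). None of the 14 lower genes passed the filter in muscle. The labels put skin in batch 1 and muscle in batch 2, so tissue and batch cannot be told apart, and the difference between tissues was not tested.

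**Figure D5:**
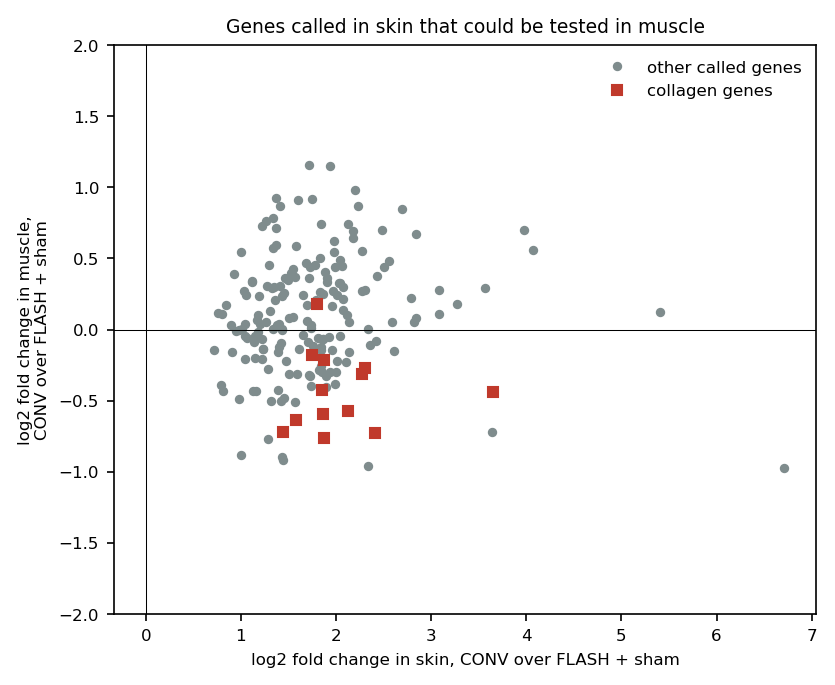
Log2 fold change of CONV over FLASH and sham in skin (x axis) and in muscle (y axis) for the genes called in skin that could be tested in both tissues, 191 in all. Collagen genes are squares; 12 of 13 lie below 0 in muscle, and no gene shown was called there.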

How the data were processed

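Total RNA of skin and muscle was sequenced after ribosomal RNA depletion with a stranded kit, per the labels' protocols. The authors deposited 1 kallisto table for each library, holding estimated counts and length-scaled TPM values (transcript shares of each library) for each transcript, made with kallisto 0.5.0 and mm10, per the submitters' processing notes. The annotation release is not given in the sources used here. Transcript IDs were matched without version to GENCODE M21 and summed to genes, 0.873% to 1.85% of a skin library's counts staying unmatched and unused, and sums were rounded to whole numbers. Each kallisto value shares reads between similar transcripts, so copies of a gene can trade counts. With edgeR 4.0.16 (limma 3.58.1, R 4.3.3), genes were filtered by filterByExpr, scaled by TMM and tested with the robust quasi-likelihood F test, CONV against FLASH and sham as 1 group, skin and muscle in separate fits. P-values were adjusted over all genes tested by Benjamini-Hochberg, with a threshold of 0.05. A standard error is the size of the log2 fold change over the square root of F, and all tests are two-sided. Each tissue held 3 CONV, 4 FLASH and 3 sham libraries. The steps were tested on simulated data. In skin 14% of simulated 2-fold changes and 80% of 4-fold ones were called in the right direction, against 86% and 98% in muscle. A list with 0 calls in skin can therefore hold changes of about 2-fold. The named genes, 128 in all, were the called genes of smallest p and of highest CPM, every gene called lower, up to 4 called members of each list (or the member of highest CPM where none was called) and the members of clusters of 3 or more called neighbours. Some genes that this rule also gives are not reported here. The promoter of Cxcl1 and the grouping by symbol were added after the values were seen. The comparison, the lists and the rule were chosen with earlier results of these data known. Promoters are from RefSeq (246 of the 331 called genes matched), and shared sequence was counted as 31-base words of the annotated transcripts. The alternatives were DESeq2 1.42.0, limma-voom, other scaling, no filter, no robust estimation, equal transcript lengths, covariates, the replicate number as a block, 3 separate groups and libraries left out. Replicate numbers are not stated to pair the libraries, so the main test used no block.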

Additional observations from a re-analysis of the deposited data

Results flagged for a closer look

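In each of the following genes 1 FLASH library lay apart from the other 3 by more than Dixon's 95% critical value for 4 libraries, measured on CPM as the gap to the nearest library over the range of the group. For normally distributed values chance alone gives about 1 such case in 20 groups. CPM need not be so distributed, and these genes were called with the same libraries, so that rate is no baseline here. The share among all genes tested was not counted. Of the 331 called genes 63 (19.0%) passed, 60 of them through FLASH library 4. That library was the high one in the genes that follow. Of the myeloid and neutrophil genes, its CPM was 8.69 for Slfn4, 0.152 for Trem3, 6.50 for Clec4e, 7.62 for Cd300lf, 20.1 for Srgn, 4.04 for Trem1, 0.638 for Retnlg, 0.486 for Fpr1 and 9.72 for Cyba. Among cytokines, chemokines and their receptors, its CPM was 4.19 for Nlrp3, 1.09 for Cxcl2, 0.607 for Ccl3, 21.1 for Il1b, 33.9 for Tnfrsf1b, 5.50 for Cxcl1 and 1.94 for Osm. Among enzymes, protease regulators and signalling genes, its CPM was 14.5 for Plaur, 18.4 for Hdc, 22.4 for Phlda1, 33.9 for Ptgs2, 21 for Sipa1 and 2.70 for Acod1. FLASH library 2 was the library apart in Gm45713, at 4.46 CPM. The genes share libraries and are not independent of each other.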

How the results depend on the processing

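With all 10 skin libraries the count of 331 calls was kept within 1.5 times with DESeq2's size factors (312), a muscle score as covariate (306, of which 246 shared), no filter (348), no robust estimation (331) and equal transcript lengths (326). It was 2078 with DESeq2 (1332 higher, 746 lower; 325 of the 331 among them), 210 with 3 groups fitted (196 shared), 105 with library totals only (105 shared), 198 with limma-voom (197 higher, 1 lower; 126 shared) and, added after seeing the data, 1334 at a threshold of 0.1 (1098 higher, 236 lower). Library totals moved the median log2 fold change of all genes to -0.10. The count was 0 with the hair score as covariate (smallest adjusted p 0.0645) and 0 without the records that carry another library name (0.231). It was 0 without the 2 muscle-rich libraries (0.197), a fit added after seeing the data. In these fits every called gene that could be tested kept its direction with an unadjusted p under 0.05. Those genes had been selected in the same libraries, so that outcome was largely fixed in advance. With 1 library left out the count was 0 to 1454. It was 1319 without CONV library 1, 148 without CONV library 2 and 1 without CONV library 3. It was 1454 without FLASH library 4 and 0 without any other. The replicate block gave 1292 calls in skin and 1 in muscle. Same-numbered skin libraries correlated at -0.41 to 0.24 and muscle libraries at -0.23 to 0.21, with no common sign. So few pairs cannot settle whether the numbers mark pairs. In muscle the 8 calls became 150 with DESeq2, 3 with 3 groups, 15 with library totals, 53 with no filter, 0 without the misnamed records, 2 without robust estimation and 1 to 89 with 1 library left out (89 without CONV library 1, 31 without FLASH library 1). No called gene named in the report changed sign under any of 23 alternatives. Of the genes not called, Cd74 changed sign to -0.11 with library totals, -0.34 with limma-voom and ran from -0.19 to 0.30 with 1 library left out. Mki67 changed to -0.21 with the hair covariate, -0.057 with library totals, -0.027 without the misnamed records, -0.23 without the muscle-rich libraries and -0.18 to 0.27 with 1 left out. Krt71 changed to -0.47, -0.053 and -0.13 with the hair covariate and without those records and those libraries, and ran from -0.81 to 0.90 with 1 left out. Myh4 and Tpm1 changed to 0.49 and 0.56 without the muscle-rich libraries, and to 1.74 and 0.20 with limma-voom. With 1 library left out Mitf ran from -0.40 to 0.12 and Pmp22 from -0.20 to 0.61. Of 989 list medians under alternatives 930 moved by less than the spread, and 38, in 9 lists, changed sign. The causes were not tested. At 24396463 counts or more per library, 56 of the genes called higher averaged under 1 CPM in the other 7 libraries, where few reads set the level.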
